A study of Mus musculus with 4 samples.

Results

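The general transcription factors are the proteins that place an RNA polymerase at a promoter, and their transcripts were followed here in RPP631, a cell line from mouse small cell lung cancer. Members were chosen by symbol from the deposited gene annotation: protein-coding genes for the TBP-associated factors (Taf followed by a number), for TFIIA, TFIIB, TFIIE and TFIIF (Gtf2a, Gtf2b, Gtf2e, Gtf2f), for TFIIIA and TFIIIC (Gtf3a, Gtf3c), and Tbp and Tbpl1. The rule found 40 genes among the 54232 in the count table. The rule uses symbols and no measured value, but the set was proposed with earlier results of these data known. TFIIH was left out. Cells had been kept for 48 h in 100 nM YKL, described by the series title as an inhibitor of CDK7, or for 48 h in DMSO, the vehicle, with 2 RNA-seq libraries in each group. The labels give neither the genotype of the line nor whether the libraries of a group came from separate cultures, so every p-value below reflects how far these libraries vary, and that variation may be technical.

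At a promoter read by RNA polymerase II, TFIID, made of the TATA-binding protein TBP and its TAF subunits, recognises core promoter DNA. TFIIA steadies TBP on the DNA, TFIIB joins TBP to the polymerase, TFIIF escorts the polymerase, and TFIIE brings in TFIIH, whose kinase is CDK7. TBP also serves the other polymerases. With 4 dedicated TAFs it forms SL1 at the ribosomal RNA genes of polymerase I, and TFIIIA and TFIIIC prepare the 5S and transfer RNA genes for polymerase III.

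The libraries held 29817387 to 34189709 counts assigned to genes. Levels are given as CPM (counts scaled to library size, after TMM normalisation), and fold changes compare YKL with DMSO. Scaling centres the middle of all genes, so a change shared by most transcripts would not be seen. In bulk RNA, fewer cells of a type and less RNA per cell cannot be told apart. The neuroendocrine markers Insm1, Chga, Syp and Ncam1 were abundant in every library, with summed levels of 1521 and 1325 CPM in YKL and 1354 and 1315 CPM in DMSO. Within that sum Chga was higher in YKL, at 759 and 679 CPM in YKL and 537 and 569 CPM in DMSO. Insm1 was lower, at 286 and 255 CPM in YKL and 373 and 321 CPM in DMSO. Syp was higher, at 193 and 196 CPM in YKL and 178 and 182 CPM in DMSO. In Chga, Insm1 and Syp the groups lay apart, while those of Ncam1 overlapped. The 6 markers of leukocytes, endothelium, fibroblasts and lung epithelium summed to 3.62 and 3.29 CPM in YKL and to 2.45 and 4.76 CPM in DMSO. None of these 6 was at 0 in all libraries. Scgb1a1 was at 0 in both YKL libraries and Ptprc at 0 in DMSO replicate 1. The sum hides opposite differences at these low levels. Ptprc had 25 and 23 counts in YKL and 0 and 2 in DMSO, and Pecam1 had 29 and 23 in YKL and 8 and 20 in DMSO. Sftpc had 24 and 20 counts in YKL and 63 and 35 in DMSO. Pdgfrb had 18 and 30 counts in YKL and 9 and 68 in DMSO, and its groups overlapped.

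Of the 40 genes, 38 passed the filter on low counts. YKL-treated cells had higher levels of Gtf2a1, the large subunit of TFIIA, and of Taf13, a small TFIID subunit. By edgeR's quasi-likelihood test with Benjamini-Hochberg adjustment over all genes tested, these 2 rose, none of the 38 fell and 36 were not called at an adjusted p under 0.05. Among all 16749 genes tested, 2.1% were called higher and 1.44% lower, or 3.54% in all. The 2 called members are 5.26% of the 38, a count too small to set apart from that background. The median log2 fold change of the 38 was 0.07, against -0.00014 over all genes tested, and without DMSO replicate 2 it was -0.09. Of the 38, 27 had a log2 fold change between -0.5 and 0.5, or 71.1%, against 64.4% of all genes tested. In 15 of the 38 both YKL libraries lay above both DMSO libraries, and in 4 both lay below. Among all genes tested, these arrangements were found in 27% and 25.3%, or 52.3% together. At an unadjusted p under 0.05, 8 of the 38 were higher and 3 lower, against 11.3% and 9.9% of all genes tested.

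**Figure D1:**
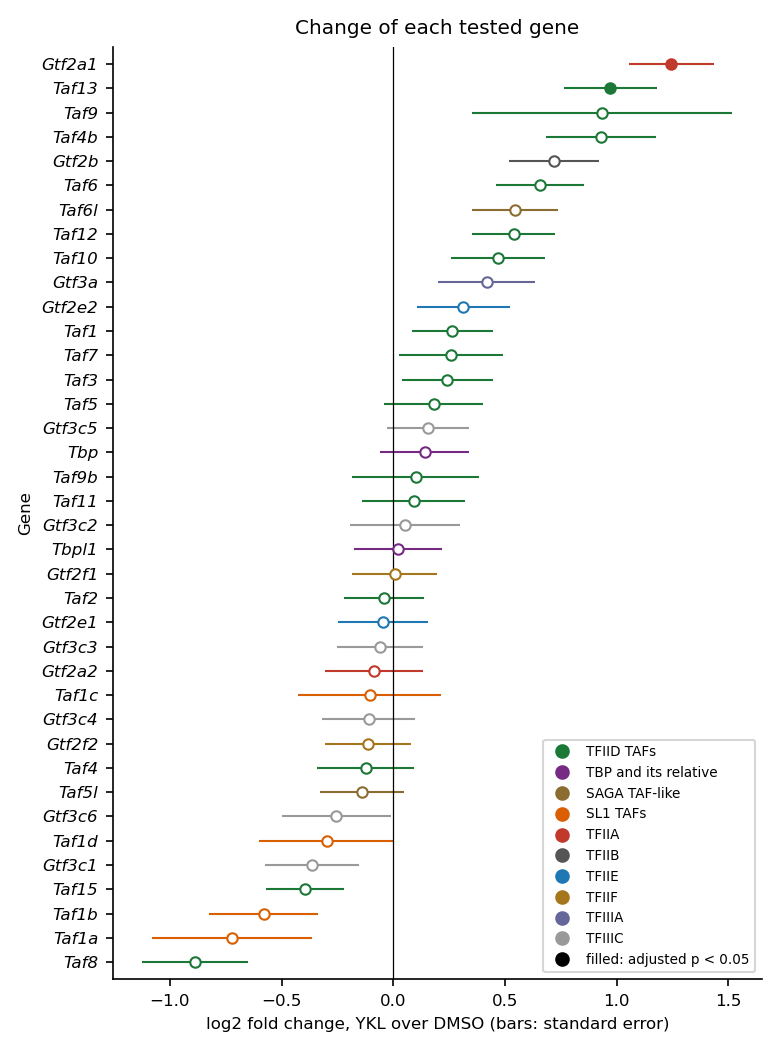
Log2 fold change, YKL over DMSO, of the 38 tested genes with its standard error, coloured by complex. Filled points mark an adjusted p under 0.05. Gtf2a1 and Taf13 are the filled points at 1.25 and 0.97, and Taf8 lies lowest at -0.89.

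Gtf2a1 (ENSMUSG00000020962, chromosome 12, 91555262 to 91590487, minus strand, mm10) encodes the precursor that is cut into the alpha and beta chains of TFIIA. It had 4575 and 5672 counts in YKL replicates 1 and 2, against 2475 and 1994 in DMSO replicates 1 and 2. These counts correspond to 149 and 176 CPM in YKL and to 74 and 63.3 CPM in DMSO. Both YKL libraries were far above both DMSO libraries, and the gap between groups exceeded the gap between replicates. The level averaged 163 ± 18.9 CPM in YKL and 68.6 ± 7.58 CPM in DMSO (SD, n = 2 each), a 2.37-fold rise (log2 fold change 1.25 ± 0.19, standard error; edgeR adjusted p = 0.0153). The call ended without YKL replicate 2, where the log2 fold change was 1.12 and edgeR's adjusted p was 0.0882. The other TFIIA chain was not called by edgeR. Gtf2a2, which encodes the small gamma chain, had 161 and 135 CPM in YKL and 186 and 128 CPM in DMSO, and its groups overlapped (log2 fold change -0.09 ± 0.22). Gtf2a1l, a paralogue of Gtf2a1 known from the testis, had 5 and 3 counts in YKL and 2 and 3 counts in DMSO, too few to test.

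Taf13 (ENSMUSG00000048100, chromosome 3, 108571698 to 108583222, plus strand) encodes a histone-fold protein that pairs with TAF11 inside TFIID. Its libraries held 1330 and 1471 counts in YKL and 697 and 775 counts in DMSO, or 43.4 and 45.7 CPM in YKL and 20.8 and 24.6 CPM in DMSO. The replicates lay close together and the groups did not overlap. The level averaged 44.5 ± 1.59 CPM in YKL and 22.7 ± 2.65 CPM in DMSO (SD, n = 2 each), a 1.96-fold rise (log2 fold change 0.97 ± 0.21; edgeR adjusted p = 0.0389). The call ended with total count scaling, upper quartile scaling or no robust prior and without either YKL library (edgeR adjusted p = 0.0626, 0.0535, 0.0596, 0.173 and 0.228 in that order), while the log2 fold change over all alternatives ran between 0.86 and 1.06. Its histone-fold partner Taf11 had 26.3 and 33.3 CPM in YKL and 31 and 25 CPM in DMSO, with overlapping groups.

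The promoters of the genes that rose are shown because a core promoter is what these factors read, together with those of Gtf2b and Taf8, whose tests came next among those with a promoter window at hand. Each window is from RefSeq (GRCm38.p6) and runs from 250 bases before to 50 bases after the annotated start, on the strand of the gene. Capitals mark exact matches on either strand to any of 6 motifs. The TATA box, where TBP binds, was searched as TATAAA. The CCAAT box, known as the site of NF-Y, was searched by those letters. The GC box, known as a site of SP1 and related zinc-finger proteins, was searched as GGGCGG. The core that ETS family factors bind was searched as CCGGAAG. The core of YY1, a zinc-finger protein, was searched as AAGATGGCG, and the core of NRF1, a regulator of many housekeeping genes, was searched too. None of these motifs contains another. Gtf2a1 has a second annotated start, whose window held none of them and is not printed.
Gtf2a1, chr12:91590438-91590737, minus strand: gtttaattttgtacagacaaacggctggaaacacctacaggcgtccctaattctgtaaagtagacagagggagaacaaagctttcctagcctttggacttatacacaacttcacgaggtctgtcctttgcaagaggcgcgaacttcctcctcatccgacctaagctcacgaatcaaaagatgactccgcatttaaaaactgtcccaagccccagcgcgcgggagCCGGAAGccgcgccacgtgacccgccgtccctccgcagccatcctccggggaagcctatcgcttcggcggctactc
Taf13, chr3:108571449-108571748, plus strand: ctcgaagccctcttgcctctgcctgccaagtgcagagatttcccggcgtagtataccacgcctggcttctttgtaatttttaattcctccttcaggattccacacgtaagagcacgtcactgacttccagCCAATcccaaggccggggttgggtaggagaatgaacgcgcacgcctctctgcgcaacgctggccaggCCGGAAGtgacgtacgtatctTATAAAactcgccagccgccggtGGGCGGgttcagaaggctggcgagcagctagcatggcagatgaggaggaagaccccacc
Gtf2b, chr3:142764997-142765296, plus strand: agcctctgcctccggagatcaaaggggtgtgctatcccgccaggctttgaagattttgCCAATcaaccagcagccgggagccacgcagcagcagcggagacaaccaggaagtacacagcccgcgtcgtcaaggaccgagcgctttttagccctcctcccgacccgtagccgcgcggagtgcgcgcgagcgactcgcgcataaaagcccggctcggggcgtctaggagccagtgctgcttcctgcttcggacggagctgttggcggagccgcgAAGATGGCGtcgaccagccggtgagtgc
Taf8, chr17:47502242-47502541, minus strand: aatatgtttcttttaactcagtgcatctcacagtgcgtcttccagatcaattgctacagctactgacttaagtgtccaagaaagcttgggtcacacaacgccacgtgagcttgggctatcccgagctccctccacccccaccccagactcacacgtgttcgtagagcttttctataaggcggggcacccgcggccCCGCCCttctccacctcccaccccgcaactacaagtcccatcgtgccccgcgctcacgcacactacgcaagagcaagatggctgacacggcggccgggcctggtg

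In the Gtf2a1 window the ETS core began 26 bases before the start, and no other motif was found. The Taf13 window held 4 motifs, a CCAAT box beginning 120 bases before the start, an ETS core at 53, a TATA box at 32 and a GC box at 9. The Gtf2b window held a CCAAT box 192 bases before the start and a YY1 core 23 bases after it. In the Taf8 window a GC box lay on the other strand, 55 bases before the start. Taf13 was the 1 gene of 36 with a promoter window that had TATAAA within the 50 bases before its start. That placement occurred in 2.22% of the 45 windows of these 36 genes, in 1.93% of the 14019 windows of protein-coding genes tested and in 3.5% of all 32851 windows.

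Over the whole 300-base window, an ETS core was found in 19 of the 45 windows of general transcription factor genes, or 42.2%. The share was 15.8% in windows of protein-coding genes tested and 8.86% in all windows. A YY1 core was found in 7 of the 45, or 15.6%, against 2.67% in windows of protein-coding genes tested. The GC box was about as common as among protein-coding genes tested, at 62.2% against 61.5%, and the CCAAT box was at 31.1% against 37.4%. TATAAA anywhere in the window was at 17.8% against 7.1%, and no window held the NRF1 core, against 1.88%. The median window of these genes was 58% G and C with 22 CG pairs, against 52.7% and 7 in all windows. Composition is not given for the windows of protein-coding genes tested. The ETS and YY1 letters both hold a CG pair, and the shares were not matched for composition. Windows of 1 gene can overlap each other, these shares carry no test, and a match describes letters, not binding. Promoter windows were not used for Gtf2e2, Taf2, Taf4b and Taf7.

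**Figure D2:**
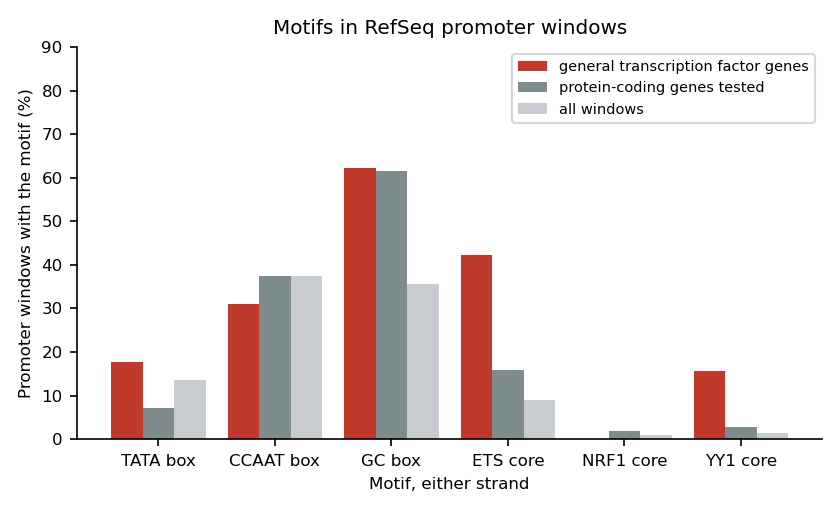
Percentage of RefSeq promoter windows that hold each motif on either strand, for general transcription factor genes (45 windows), protein-coding genes tested (14019) and all windows (32851). The ETS core stands at 42.2%, 15.8% and 8.86% and the YY1 core at 15.6%, 2.67% and 1.4%.

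Among the 17 TFIID TAF genes, 16 were tested. By edgeR, Taf13 rose, none fell and 15 were not called. DESeq2 also called Taf4b higher and Taf8 lower, and the authors' deposited table calls Taf4b, Taf6 and Taf12 higher and Taf8 and Taf15 lower beside Taf13. The log2 fold changes ran between -0.89 and 0.97, with a median of 0.25, and 12 were above 0 and 4 below. Of all genes tested, 50% were above 0. The 12 include Taf9, which had few counts in every library. Without DMSO replicate 2 the split was 9 above and 7 below, and without DMSO replicate 1 it was 14 above and 2 below. The summed level of the TFIID TAF genes was 1234 and 1226 CPM in YKL and 1092 and 1064 CPM in DMSO. Taf1, which encodes the largest subunit, a scaffold with bromodomains, had the most counts of all 40 genes in every library. It stood at 438 and 411 CPM in YKL and at 325 and 381 CPM in DMSO (log2 fold change 0.27 ± 0.18), so its groups did not overlap, but the difference was not called by edgeR.

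Taf4b had the next smallest p among the TAF genes with higher values. It encodes a TAF4 paralogue known mainly from germ cells, and had 27.2 and 33.1 CPM in YKL and 17.8 and 13.9 CPM in DMSO (log2 fold change 0.93 ± 0.25; edgeR adjusted p = 0.0719). Taf4 itself, which pairs with TAF12 and anchors the TFIID core, had 59.9 and 43.1 CPM in YKL and 61.2 and 51 CPM in DMSO. Those Taf4 values overlapped between the groups. Taf6, whose product pairs with TAF9, had 105 and 81.2 CPM in YKL and 61.5 and 56.6 CPM in DMSO (log2 fold change 0.66 ± 0.20; edgeR adjusted p = 0.0987), and 26.5% of its exonic bases are shared with Ap4m1 on the other strand. The strand setting of the counting is not given in the sources used here, so reads of such overlapping genes may not be told apart. Taf12 had 84.1 and 73.6 CPM in YKL and 56.1 and 52.4 CPM in DMSO (log2 fold change 0.54 ± 0.18). Taf10, a histone-fold subunit found in both TFIID and SAGA, had 78.7 and 111 CPM in YKL and 67.3 and 69.9 CPM in DMSO, with 45.9% of its exonic bases shared with Ilk on the other strand. In Taf6, Taf12 and Taf10 both YKL libraries exceeded both DMSO libraries, without a call by edgeR or by DESeq2. The authors' deposited table calls Taf6 and Taf12 higher (adjusted p = 0.000103 and 0.0077).

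Taf8 and Taf15 lay in the other direction. TAF8 pairs with TAF10 and joins the TFIID lobes, and Taf8 (ENSMUSG00000023980) had 461 and 533 counts in YKL and 1069 and 835 counts in DMSO. Its level was 15 and 16.5 CPM in YKL and 32 and 26.5 CPM in DMSO, with no overlap. At a log2 fold change of -0.89 ± 0.24 it was the lowest of the 38, with an edgeR adjusted p of 0.0719 and a call by DESeq2 (adjusted p = 0.0123). Taf15, an RNA-binding protein that was also found with TFIID, had 123 and 132 CPM in YKL and 168 and 168 CPM in DMSO (log2 fold change -0.40 ± 0.17). Its DMSO libraries were nearly equal and both were above the YKL libraries. Taf2, whose product contacts the initiator of core promoters, had 82.1 and 84.1 CPM in YKL and 90.4 and 80.5 CPM in DMSO, and Taf3, whose product reads a methylated histone mark of active promoters, had 39.3 and 37.3 CPM in YKL and 35.1 and 29.7 CPM in DMSO. The groups overlapped for Taf2 and not for Taf3. The TFIID genes Taf2, Taf3, Taf5, Taf7, Taf9b and Taf11 had log2 fold changes between -0.04 and 0.26.

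Taf9 and Taf7l had too few counts of their own to be read. Taf9 had 27 and 31 counts in YKL and 12 and 19 counts in DMSO, and 73.8% of its exonic bases are shared with Ak6 on the same strand, which had 1387 and 1277 counts in YKL and 1269 and 917 in DMSO. How reads in shared exons were assigned is not given in the sources used here, so the log2 fold change of Taf9 (0.94 ± 0.58) is uncertain. Its paralogue Taf9b had 52.3 and 68.4 CPM in YKL and 71.8 and 40.7 CPM in DMSO, with a wider gap between the DMSO libraries than between the groups. Taf7l, a paralogue of Taf7 known from germ cells, had 3 and 2 counts in YKL and 1 and 4 in DMSO and was not tested. Taf7 had 24.6 and 26.1 CPM in YKL and 23.6 and 18.9 CPM in DMSO.

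**Figure D3:**
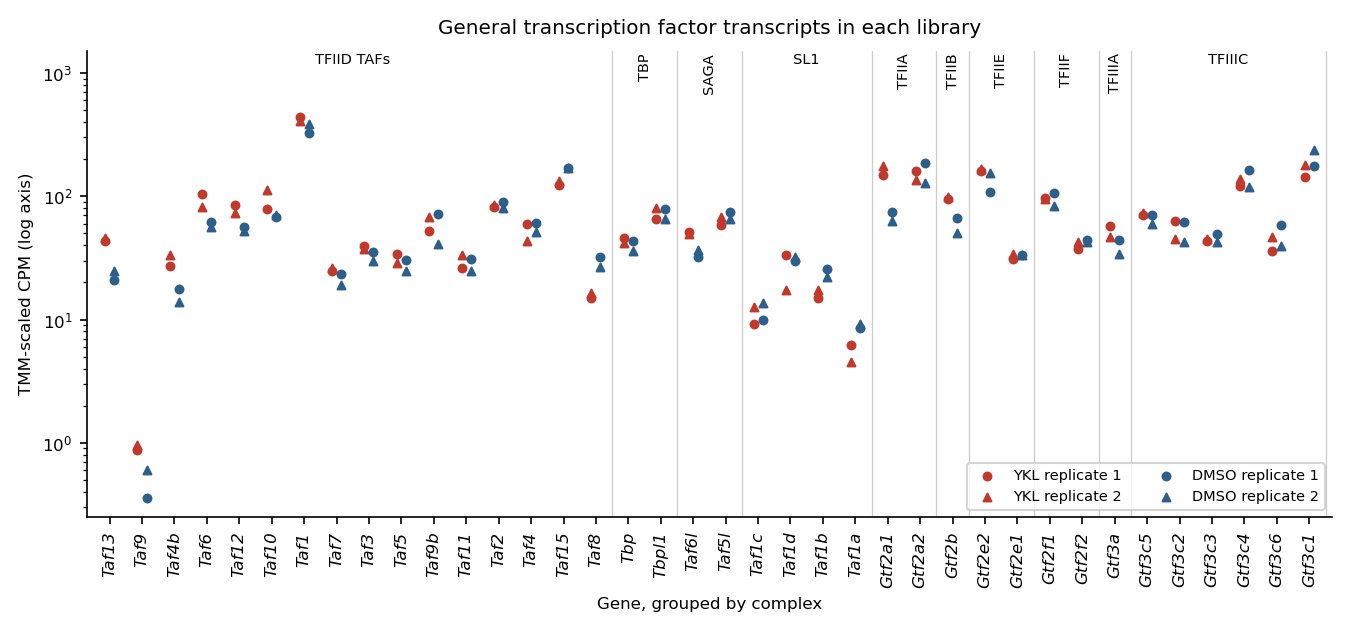
TMM-scaled CPM on a log axis in each of the 4 libraries for the 38 tested genes, grouped by complex and ordered within a complex by fold change. Gtf2a1, Taf13, Taf4b and Gtf2b have both YKL libraries above both DMSO libraries, Taf8 has both below, and Taf9 lies under 1 CPM in every library.

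Neither TBP nor its relative was called by edgeR, by DESeq2 or in the authors' deposited table. Tbp had 45.8 and 41.6 CPM in YKL and 43.3 and 36 CPM in DMSO (log2 fold change 0.14 ± 0.20). Tbpl1, which encodes the TBP-like factor TRF2 needed in sperm development, had 65.8 and 80.1 CPM in YKL and 78.3 and 65.5 CPM in DMSO (0.02 ± 0.20). The groups overlapped in both genes. Exonic bases are shared with an opposite-strand gene over 19% of Tbp, with Pdcd2, and over 12.4% of Tbpl1, with Slc2a12. Pdcd2 had 0 counts in every library, and Slc2a12 had 1 and 1 in YKL and 3 and 0 in DMSO. How reads in shared bases were assigned is not given, so these low counts do not lift that limit. The TAF-like genes of SAGA, a coactivator complex that acetylates histones, were not called either by edgeR or by DESeq2, while the authors' deposited table calls Taf6l higher (adjusted p = 0.00863). Taf6l had 50.9 and 49.3 CPM in YKL and 32.2 and 36.5 CPM in DMSO (log2 fold change 0.55 ± 0.19; edgeR adjusted p = 0.146), whereas Taf5l had 58.4 and 67.9 CPM in YKL and 74.1 and 65.2 CPM in DMSO (-0.14 ± 0.19). The difference between Taf6l and Taf5l was not tested. Taf5, the TFIID paralogue of Taf5l, had 33.8 and 28.8 CPM in YKL and 30.6 and 24.6 CPM in DMSO.

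The 4 TAF genes of SL1, the factor that selects ribosomal RNA promoters for RNA polymerase I, all had log2 fold changes below 0. None of the 4 was called by edgeR or by DESeq2, while the authors' deposited table calls Taf1a and Taf1b lower (adjusted p = 0.00746 and 0.00902). Taf1a had 6.27 and 4.5 CPM in YKL and 8.52 and 9.23 CPM in DMSO (log2 fold change -0.72 ± 0.36; edgeR adjusted p = 0.286). Taf1b, whose product resembles TFIIB, had 14.8 and 17.2 CPM in YKL and 25.6 and 22.3 CPM in DMSO (-0.58 ± 0.24; edgeR adjusted p = 0.21). In these 2 genes the groups did not overlap. Taf1c had 9.14 and 12.6 CPM in YKL and 9.89 and 13.5 CPM in DMSO (-0.11 ± 0.32), and Taf1d had 33.3 and 17.3 CPM in YKL and 30 and 32.1 CPM in DMSO (-0.30 ± 0.30). The low value of Taf1d came from YKL replicate 2. Taf1d hosts small nucleolar RNA genes, and 13.6% of its exonic bases are shared with other genes. Of the 4, 1 gene was above 0 without YKL replicate 1, without YKL replicate 2 and without DMSO replicate 2.

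Among the remaining polymerase II factors, Gtf2b had the largest difference. It encodes TFIIB, which bridges TBP and the polymerase, and had 95.7 and 97.6 CPM in YKL and 67 and 50.3 CPM in DMSO. The YKL libraries were almost equal and both exceeded the DMSO libraries, which were further apart. The log2 fold change was 0.72 ± 0.20 and missed the threshold by edgeR (adjusted p = 0.0816) but passed it by DESeq2 (adjusted p = 0.0492). Gtf2e2, the beta subunit of TFIIE, had 160 and 165 CPM in YKL and 108 and 154 CPM in DMSO (0.31 ± 0.21), so most of its difference rested on DMSO replicate 1. Gtf2e1, the alpha subunit, had 31 and 34.1 CPM in YKL and 33.6 and 33.6 CPM in DMSO. Gtf2f1, the large subunit of TFIIF, had 96 and 95.3 CPM in YKL and 106 and 84 CPM in DMSO, and Gtf2f2, the small one, had 37.5 and 42.2 CPM in YKL and 44.1 and 42.2 CPM in DMSO. Their log2 fold changes were 0.01 ± 0.19 for Gtf2f1 and -0.11 ± 0.19 for Gtf2f2, with overlapping groups in both.

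No gene of the polymerase III factors was called by edgeR or by DESeq2, while the authors' deposited table calls Gtf3a higher and Gtf3c1 lower (adjusted p = 0.0474 and 0.0434). Gtf3a, which encodes TFIIIA, the zinc-finger protein of the 5S RNA genes, had 57.8 and 46.6 CPM in YKL and 44.2 and 33.9 CPM in DMSO (log2 fold change 0.42 ± 0.22; edgeR adjusted p = 0.307), and 59.1% of its exonic bases are shared with Mtif3 on the other strand. The 6 TFIIIC genes had log2 fold changes between -0.36, in Gtf3c1, and 0.15, in Gtf3c5. Gtf3c1, whose product is the largest TFIIIC subunit and contacts the B box of transfer RNA genes, had 143 and 179 CPM in YKL and 176 and 238 CPM in DMSO. Gtf3c6 had 35.6 and 46.9 CPM in YKL and 58.6 and 39.8 CPM in DMSO. Gtf3c4, the most abundant TFIIIC gene per kilobase of exon, had 121 and 138 CPM in YKL and 163 and 118 CPM in DMSO. With the longest protein-coding transcript as the length, Gtf3c1 led the TFIIIC genes at 10th of 40, and Gtf3c4 was 19th. The groups overlapped in every TFIIIC gene, Gtf3c1 included, except Gtf3c5, where both YKL libraries were higher. Gtf3c2 and Gtf3c3 had log2 fold changes of 0.05 and -0.06. Gtf3c2 shares 38.9% of its exonic bases with Gm29609 on the same strand.

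Because the subunits of a complex are needed in set proportions, ratios of their levels per kilobase of exon were taken within each library, where scaling cancels. The pairs were chosen after values had been seen, and the ratios carry no test, since with 2 libraries per group an exact permutation test cannot give a p below 0.333. Of 13 pairs, 3 had a higher ratio in both YKL libraries than in both DMSO libraries, 4 a lower one and 6 overlapped. Among single genes tested 52.3% did not overlap, so nothing about the pairs is read from that count. The Gtf2a1 to Gtf2a2 ratio was 0.602 and 0.847 in YKL and 0.257 and 0.322 in DMSO, a 2.48-fold difference. The Taf13 to Taf11 ratio was 1.2 and 0.995 in YKL and 0.488 and 0.715 in DMSO. In these 2 pairs the ratios of the groups did not overlap and were higher in YKL.

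The Taf8 to Taf10 ratio was 0.315 and 0.245 in YKL and 0.783 and 0.625 in DMSO, lower in both YKL libraries. The Taf4b to Taf4 ratio was 0.407 and 0.69 in YKL and 0.26 and 0.245 in DMSO, so the share of the paralogue was higher in YKL while Taf4 remained the more abundant of the pair per kilobase. For Taf4 to Taf12 the ratio was 0.622 and 0.512 in YKL and 0.953 and 0.849 in DMSO. The TFIIE pair, Gtf2e1 to Gtf2e2, was also lower, at 0.0723 and 0.0772 in YKL and 0.117 and 0.0816 in DMSO. So was Taf5l to Taf5, at 1.58 and 2.15 in YKL and 2.21 and 2.42 in DMSO. The TFIIF pair, Gtf2f1 to Gtf2f2, had overlapping ratios of 2.19 and 1.93 in YKL and 2.06 and 1.7 in DMSO. Overlap was also seen for Taf6l to Taf6, at 0.369 and 0.462 in YKL and 0.398 and 0.49 in DMSO.

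**Figure D4:**
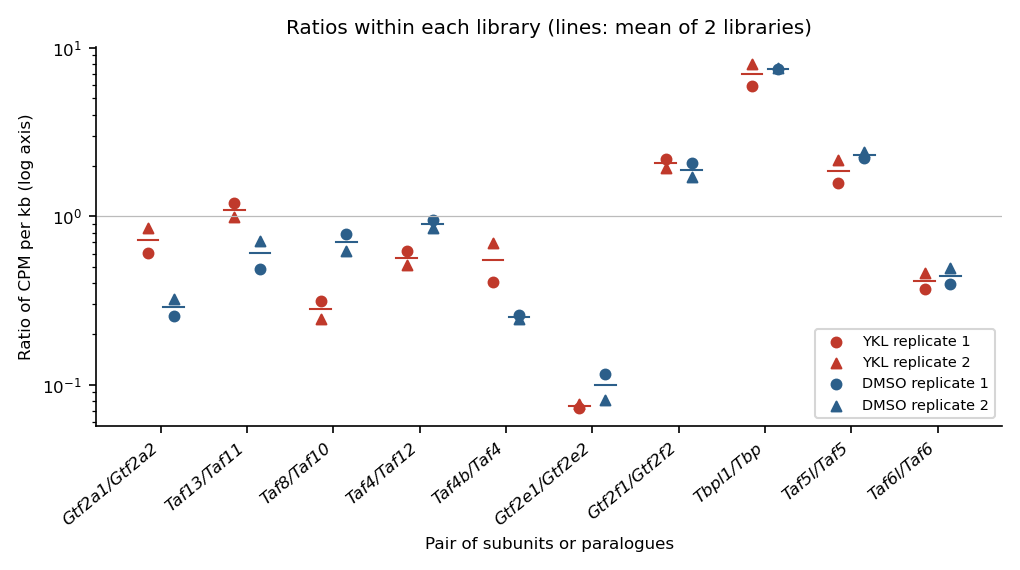
Ratio of the levels per kilobase of 2 subunits or paralogues within each library, on a log axis, with the mean of 2 libraries as a line. Gtf2a1/Gtf2a2, Taf13/Taf11 and Taf4b/Taf4 lie higher in both YKL libraries. Taf8/Taf10, Taf4/Taf12, Gtf2e1/Gtf2e2 and Taf5l/Taf5 lie lower, and Gtf2f1/Gtf2f2, Tbpl1/Tbp and Taf6l/Taf6 overlap.

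Per kilobase of exon the levels spread widely. By the mean over all libraries Gtf2e2 led, with 69.1 ± 1.41 CPM per kb in YKL and 55.6 ± 13.8 CPM per kb in DMSO (SD, n = 2 each), followed by Gtf2f1 at 55.7 ± 0.297 CPM per kb in YKL and 55.5 ± 9.28 CPM per kb in DMSO. Those 2 levels overlapped in DMSO. By the same mean Taf15 came next, 4th in YKL and 1st in DMSO, at 43.7 ± 2.15 CPM per kb in YKL and 57.5 ± 0.0304 CPM per kb in DMSO, and Taf1 stood at 49.6 ± 2.3 CPM per kb in YKL and 41.3 ± 4.67 CPM per kb in DMSO. Tbp was 36th of 40 by this mean, at 3.22 ± 0.219 CPM per kb in YKL and 2.92 ± 0.379 CPM per kb in DMSO, with an exon length of 13576 bases in the count table. With the longest protein-coding transcript of GENCODE M21 as the length, Tbp was 37th. Gtf2a2 moved to 1st instead of 5th and Gtf2b to 5th instead of 15th, so the order depends on the length used. For Tbp that transcript has 12794 bases, close to its exon length, so the second ranking is no separate check of its place. Gtf2f2 had a similar mean level, 39.9 CPM in YKL and 43.1 CPM in DMSO, against 43.7 and 39.6 CPM for Tbp. With 1467 bases, Gtf2f2 was 6th per kilobase of exon. Gtf2a1 was 7th per kilobase of exon in YKL and 22nd in DMSO, and Taf13 was 19th in YKL and 28th in DMSO.

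The median gap between replicates was somewhat smaller for these genes than over all genes tested. The 2 sets were not matched for level, and the difference was not tested. The median absolute log2 ratio between replicates was 0.20 in YKL and 0.26 in DMSO over the 38 genes, and 0.25 in YKL and 0.33 in DMSO over all genes tested. A start of another protein-coding gene on the opposite strand lay within 1000 bases for 10 of the 38, or 26.3%, against 15.2% of protein-coding genes tested. None of the 9 such neighbours that were tested was called, with log2 fold changes between -0.46 and 0.13. Cnpy4, which starts 34 bases from Taf6, had a log2 fold change of 0.13 beside the 0.66 of Taf6, and Psmb1, 137 bases from Tbp, had -0.06 beside 0.14.

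Of 30 listed genes that act with these factors, in TBP release and repression, TFIIIB, SNAPc, polymerase I initiation, SAGA and TFIIS, none was called by edgeR or by DESeq2. At an unadjusted p under 0.05, edgeR found 0 higher and 3 lower, where 9.9% of all genes tested were lower, so the count of 3 in 30 is near that background. Of the 30 log2 fold changes 22 were below 0, with a median of -0.17, where 8376 of all 16749 were below 0. Usp22, the ubiquitin protease of SAGA, had 200.2 and 215 CPM in YKL and 323 and 298 CPM in DMSO (log2 fold change -0.58 ± 0.18; edgeR adjusted p = 0.1). Drap1, which with Dr1 forms the TBP repressor NC2, had 58 and 65.7 CPM in YKL and 101 and 83.8 CPM in DMSO (-0.58 ± 0.19; edgeR adjusted p = 0.122). In both genes the YKL libraries were below the DMSO libraries. Without DMSO replicate 2 the log2 fold changes were -0.67 for Usp22 and -0.75 for Drap1.

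The call count for the general transcription factors changed with the method. DESeq2, edgeR with the replicate number as a block and edgeR without the filter each called 5 of them, Gtf2a1, Taf13, Taf4b and Gtf2b higher and Taf8 lower. DESeq2 called 5.24% of all genes higher and 4.88% lower, the block fit called 8.28% in either direction and the fit without the filter 5.79%. RLE scaling called the same 2 genes as the processing reported, with 4.19% of all genes called. Total count scaling, upper quartile scaling and the fit without the robust prior each called Gtf2a1 alone, with 1.01%, 1.98% and 1.41% of all genes called. Leaving out 1 library called 1 of the genes without YKL replicate 1, 0 without YKL replicate 2, 4 without DMSO replicate 1 and 3 without DMSO replicate 2, where 0.606%, 0.402%, 7.61% and 14% of all genes were called. Of the genes not called with all libraries, Taf4b and Gtf2b were called higher without DMSO replicate 1 and Taf8 lower without DMSO replicate 2. In the authors' deposited table all 38 genes are listed, 8 with an adjusted p under 0.05 and higher in YKL and 5 lower, where 13.9% of the 15936 genes are higher and 13.9% lower. The authors' deposited table gives Gtf2a1 a log2 fold change of 1.15 ± 0.16 and Taf13 one of 0.91 ± 0.15. In the authors' deposited table the other higher genes are Taf4b, Taf6, Gtf2b, Taf12, Taf6l and Gtf3a, and the lower ones are Taf8, Taf1a, Taf1b, Taf15 and Gtf3c1.

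**Figure D5:**
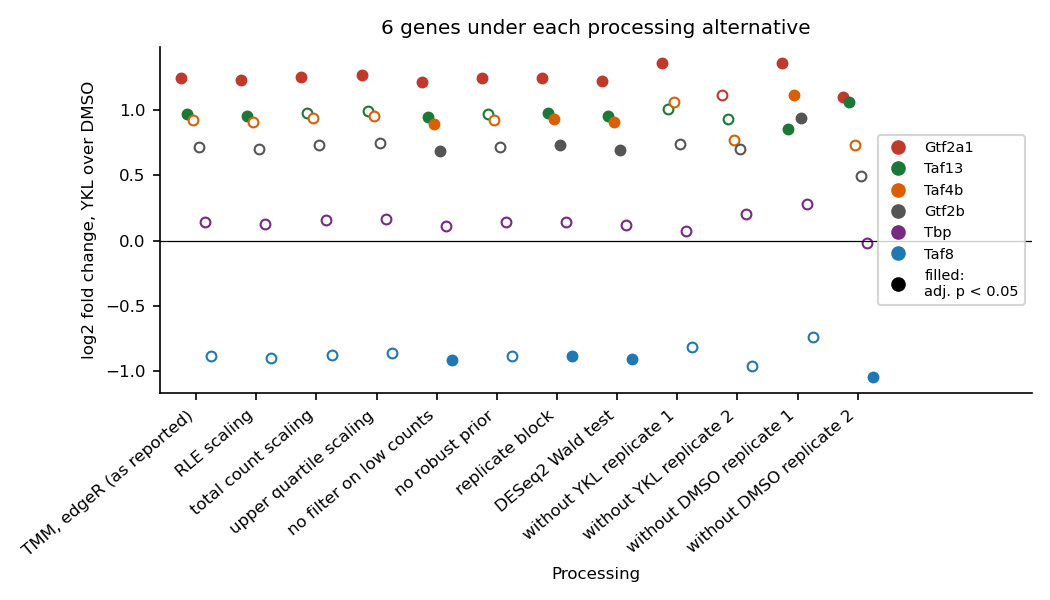
Log2 fold change, YKL over DMSO, of 6 genes under the processing reported and 11 alternatives, with filled points at an adjusted p under 0.05. Gtf2a1 stays between 1.1 and 1.36 and Taf8 between -1.05 and -0.74, while Tbp crosses 0 without DMSO replicate 2.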

How the data were processed

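Bulk RNA of RPP631 cells was sequenced after 48 h in 100 nM YKL or in DMSO, 2 libraries each. Per the submitters' processing notes, the tools were STAR 2.5.2b, featureCounts and DESeq2, with mm10 as the build; the strand setting is not given in the sources used here. The authors deposited raw counts per gene, with exon length, and a DESeq2 comparison table, in which the authors give mean signal over libraries, log2 fold change, test score and p-value, raw and adjusted. That table served only for side-by-side values.

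Counts were tested with edgeR 4.0.16 in R 4.3.3: filterByExpr (minimum count 10, minimum total 15), TMM scaling, robust quasi-likelihood fit with 2 residual degrees of freedom, and Benjamini-Hochberg adjustment over all genes, called under 0.05. Standard errors are the absolute log2 fold change over the square root of F. The procedure was run on simulated data in which every gene had the same dispersion. That run does not cover replicate spread that differs between genes or between groups. The alternatives were 3 other scalings (by upper quartile, by total count, by RLE), a fit lacking the filter, one lacking the robust prior, a replicate block, DESeq2 1.42.0 and leaving out each library in turn. Shared exonic bases came from the positions in the count table, either strand. All 40 members were found in GENCODE M21, as were 99.9% of all identifiers. Of the 40, 36 had the same start and end there as in the count table. Promoter windows are from RefSeq (GRCm38.p6), with 36 of 40 members matched by symbol. Members, lists and tests were chosen with earlier results of these data known; subunit pairs, neighbours and the transcript-length ranking were added after values were seen. Values are given for called members, the 3 highest and 3 lowest fold changes, the most abundant of each complex and the paralogues, with others added for their role. A further listed marker gene is not reported here. Figures were drawn with matplotlib 3.10.9.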

Additional observations from a re-analysis of the deposited data

How the results depend on the processing

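Instead of 2 members called, 1 was called with total count scaling, upper quartile scaling or no robust prior, and 5 without the filter, with the replicate block or by DESeq2; leaving out 1 library gave 0 to 4. Of the partner genes, 0 were called with all libraries, 1 without the filter and 0 to 2 with 1 library left out. Over all genes the count of 593 became 169 with total count scaling, 331 with upper quartile scaling, 1740 without the filter, 236 without the robust prior, 1387 with the replicate block and 1460 by DESeq2, and 71 to 2453 with 1 library left out (71 without YKL replicate 2, 106 without YKL replicate 1, 1343 without DMSO replicate 1 and 2453 without DMSO replicate 2). The cause of these moves was not tested. When a group has 1 library left, that library is assumed to vary like the other group. Same-numbered libraries deviated from their group means with a correlation of 0.15, and nothing in the labels pairs them.

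Differences near 0, none of them called, changed sign when 1 library was left out. Gtf2a2 ran between -0.37 and 0.22, Gtf2f1 ran between -0.19 and 0.19, Gtf3c4 ran between -0.36 and 0.14, Taf4 ran between -0.38 and 0.092. Taf5 ran between -0.0039 and 0.35, Taf9b ran between -0.28 and 0.57, Tbp ran between -0.021 and 0.28, Tbpl1 ran between -0.14 and 0.16 (log2 fold changes). Gtf2f1 was also below 0 with RLE scaling (-0.0083), without the filter (-0.024) and by DESeq2 (-0.014), and Tbpl1 without the filter (-0.0087). Of 274 recomputed fold changes of named genes, 238 kept their direction and side of the threshold. Depth limits Taf9, Taf7l and Gtf2a1l, with at most 31, 4 and 5 counts in any library.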
